A study of Mus musculus with 40 samples.

Results

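Tnf and 9 genes of the NF-κB response were followed in tumor RNA: Nfkbia, Tnfaip3, Nfkb1, Nfkb2, Rel, Relb, Birc3, Sod2 and Tnfaip2. They were taken by symbol from a table of 54087 genes, each symbol matched 1 entry, and all 10 were among the 14760 genes with enough counts to be tested. The tumors were CT26 tumors, a mouse colon carcinoma line grown under the skin of syngeneic BALB/c mice that were 6 to 12 weeks old. Each mouse received 1000000 tumor cells, then monoclonal antibodies (mAbs) into the peritoneum on days 6, 9 and 12, and fragments of the tumor were frozen on day 13.

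Each of 8 groups held 5 mice. The control group received an isotype mAb, motavizumab as mIgG2a. A pair of groups received the anti-GARP:TGF-β1 mAb 58A2, which binds the complex of GARP with latent TGF-β1, either as a wild-type mIgG2a (WT) or in a form whose Fc part does not engage Fc receptors (FcD). Another group received anti-TGF-β, clone 1D11, which neutralizes every TGF-β isoform, and another an Fc-silent anti-PD-1 (anti-PD-1 FcS). The last 3 groups received anti-PD-1 FcS together with the WT or the FcD form of anti-GARP:TGF-β1 or with anti-TGF-β, and are called the WT, FcD and anti-TGF-β combinations below. No gene was deleted in any group, and CT26 is a single transplanted line that grows within days. Mice are named by their library number, 41 to 80.

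NF-κB is a family of transcription factors built as dimers of 5 subunits, among them Nfkb1 (p105, cut to p50), Nfkb2 (p100, cut to p52), Rel and Relb. In resting cells the dimers are held in the cytoplasm by inhibitors such as IκBα, the product of Nfkbia. TNF and other signals trigger the destruction of the inhibitor, and the freed dimers switch on genes that include the cytokine itself, survival genes and the inhibitors that end the response, which is why Nfkbia and Tnfaip3 serve as feedback genes. In tumors, TNF comes mainly from myeloid cells and activated lymphocytes, and it can act on tumor cells, vessels and leukocytes alike.

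RefSeq promoters of 8 of the 10 genes were at hand (build GRCm38.p6), and the 250 bases before each annotated start were searched on both strands for the κB consensus, the motif of 10 bases bound by NF-κB dimers. It occurred in 6 of the 8 genes, against 8.23% of all 27025 genes with such a window. The matches are shown because this motif is how NF-κB proteins recognize their target genes. Each is printed along the gene's strand with 10 bases on either side, and capitals mark the match.
Nfkbia, chr12:55492657-55492686, minus strand: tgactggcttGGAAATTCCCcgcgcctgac
Tnfaip3, chr10:19015403-19015432, minus strand: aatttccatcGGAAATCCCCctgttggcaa
Rel, chr11:23771042-23771071, minus strand: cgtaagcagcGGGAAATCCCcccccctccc
Nfkb2, chr19:46304688-46304717, plus strand: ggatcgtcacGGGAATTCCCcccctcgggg
Sod2, chr17:13007746-13007775, plus strand: cggggcggacGGGGTTCCCCgaggcggggc
Tnfaip2, chr12:111442627-111442656, plus strand: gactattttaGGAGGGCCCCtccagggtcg
The first base of the match lay 29 bases before the start of Nfkbia, 12 before that of Tnfaip3, 92 before that of Rel, 39 before that of Nfkb2, 83 before that of Sod2 and 24 before that of Tnfaip2. Some matches overlapped one another on the opposite strand or 1 base along, and Tnfaip3 and Nfkb2 had further matches. Neither Tnf nor Birc3 had these letters in the window, which says nothing of sites elsewhere. A match is a run of letters and not evidence that a factor binds there.

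Total counts ran from 11931730 to 20680548 per tumor (median 14030511). Of the members, Tnf had the fewest reads, 36 to 398 per tumor, and Nfkb2 and Tnfaip2 the most, 2983 to 7396 and 3574 to 6546. In 4 groups the mouse highest on the first principal component of all tested genes stood apart from the other mice of its group by a gap of 0.56 to 0.754 of the group's range. These were mouse 48 (anti-TGF-β), 52 (anti-PD-1 FcS), 53 (anti-TGF-β combination) and 77 (WT combination). The library numbers were also split into lower numbers (41 to 60) and upper numbers (61 to 80), each with 2 or 3 mice of every group. The labels give no batch, so this is a split of the numbering, but the parts differed: the sum of 6 epithelial markers was 5.08 to 18.2 CPM (counts per 1000000 counted reads, TMM-normalized) in all 20 lower and 20.6 to 517 in all 20 upper numbers, with no overlap. Krt8, Epcam and Cldn4 among these were at 0 in 3, 7 and 10 tumors. RNA came from whole fragments, in which fewer cells of a type and less RNA per cell cannot be told apart.

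Levels are compared between genes only per kilobase of exon. The length is that of the annotated exons of the gene: 12061 bases for Nfkb1 and 10008 for Sod2, against 1639 for Tnf and 1610 for Nfkbia. Which transcripts the tumors held was not determined, so the order between genes depends on these lengths. In the control tumors Nfkb2 (86.3 ± 6.52 CPM per kb, SD, n = 5), Nfkbia (71.9 ± 9.46) and Tnfaip2 (66.0 ± 5.88) were the highest. Relb (17.6 ± 2.06) and Nfkb1 (12.3 ± 0.863) followed. Sod2 (7.59 ± 0.496), Tnfaip3 (6.53 ± 1.17), Tnf (5.09 ± 1.27), Birc3 (4.71 ± 0.427) and Rel (2.34 ± 0.398) were the lowest. From here on all levels are CPM of 1 gene compared between tumors, and all differences are log2 fold changes.

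Tnf, the ligand, lies at chr17:35199381-35202007 on the minus strand (GRCm38) and overlaps no other gene. Control tumors had 10.1, 8.89, 10.4, 6.13 and 6.17 CPM. The 3 combinations lay above all of them. The WT combination had 14.1, 11.1, 16.8, 12.6 and 24.8 CPM, the FcD combination 18.4, 14.4, 22.0, 16.5 and 22.3, and the anti-TGF-β combination 18.0, 12.9, 12.2, 10.9 and 13.2. So each of the 15 tumors given anti-PD-1 FcS with another mAb exceeded each control tumor.

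Given without a partner, the mAbs left Tnf within the range of the controls in 5 of 5 tumors with WT, 3 with anti-TGF-β, 2 with FcD and 2 with anti-PD-1 FcS. Anti-GARP:TGF-β1 WT tumors had 8.23, 9.99, 9.33, 7.57 and 6.43 CPM and FcD tumors 10.6, 6.60, 8.21, 10.7 and 4.38. With anti-TGF-β, 4 tumors had 5.47 to 8.65 CPM and mouse 48 had 21.6. With anti-PD-1 FcS, mouse 52 had 21.3 CPM and the other 4 had 2.66, 6.92, 10.5 and 7.57. The groups ranked by mean as FcD combination (18.7 ± 3.45 CPM), WT combination (15.9 ± 5.38), anti-TGF-β combination (13.5 ± 2.72), anti-TGF-β (10.3 ± 6.44), anti-PD-1 FcS (9.79 ± 7.02), isotype control (8.35 ± 2.09), anti-GARP:TGF-β1 WT (8.31 ± 1.41) and FcD (8.09 ± 2.69). The medians of anti-TGF-β (8.15 CPM) and anti-PD-1 FcS (7.57) were below that of the controls (8.89). Each neighbouring pair in this order differed by less than the SD of at least 1 of its groups.

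**Figure D1:**
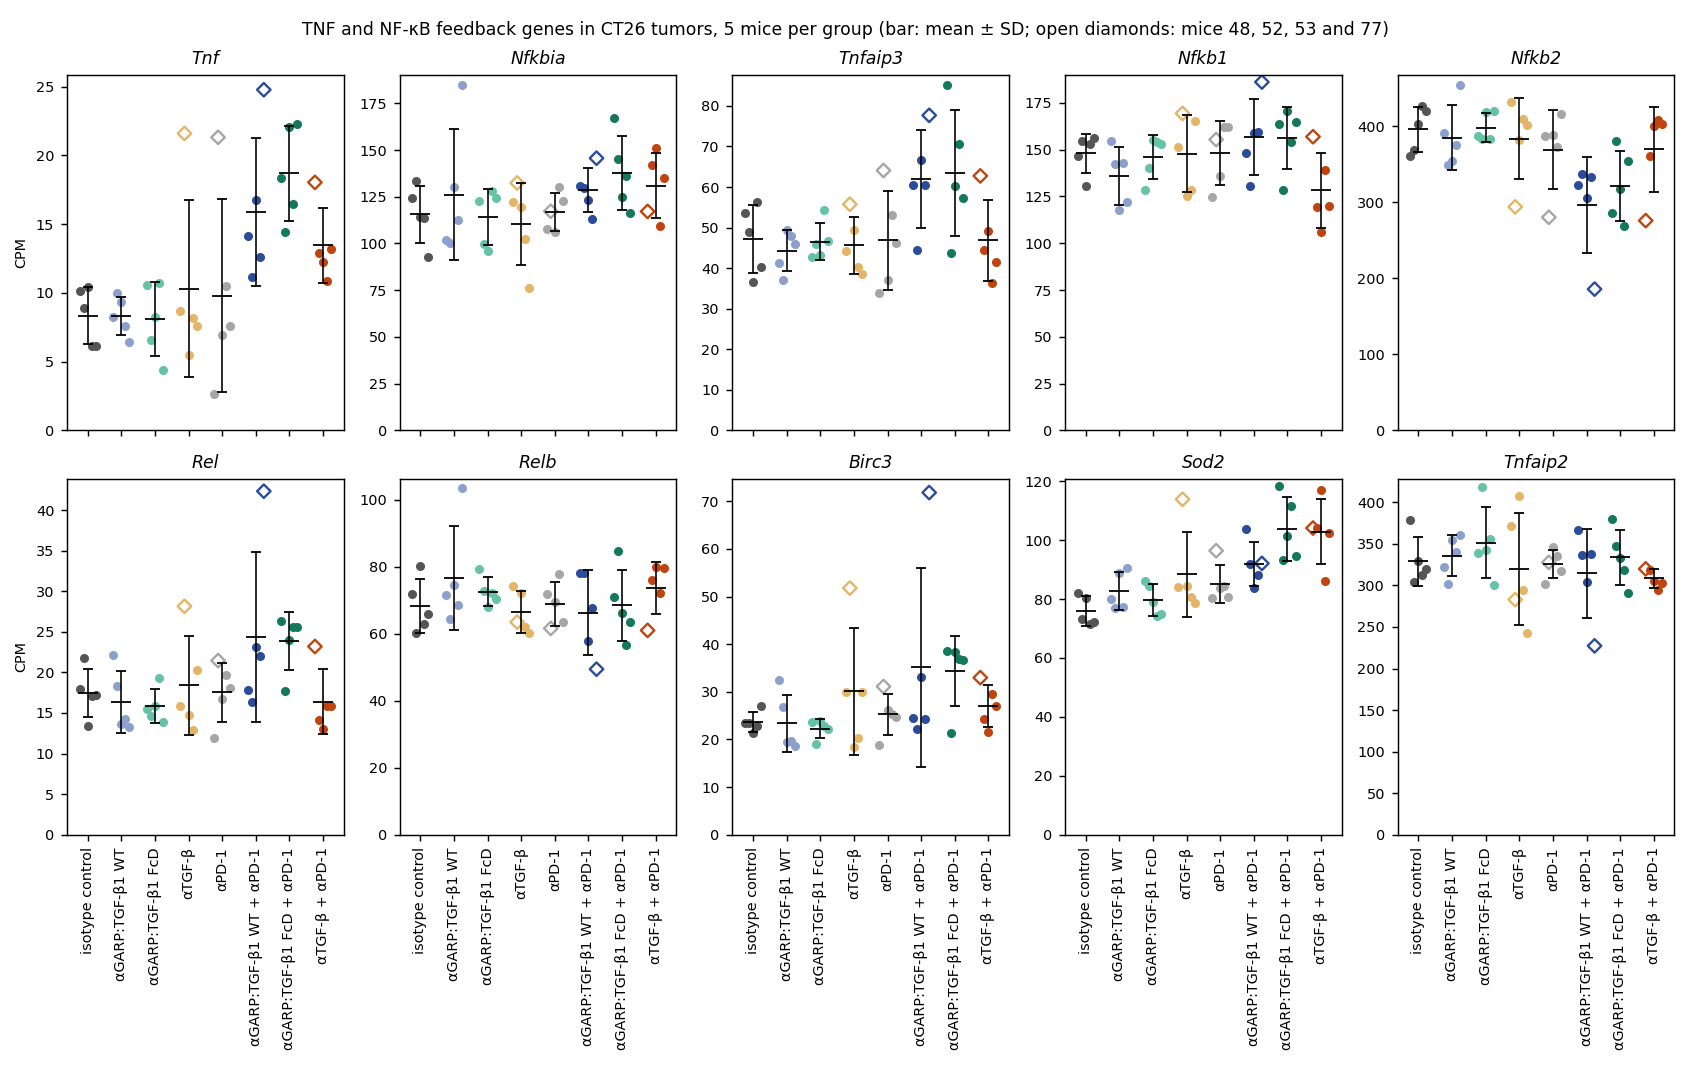
CPM (y axis, from 0) of each of the 10 genes in every tumor, by treatment group (x axis), with the mean and SD of 5 mice and open diamonds for mice 48, 52, 53 and 77, which stood apart on the first principal component. Tnf and Sod2 in the 3 combinations lie above all 5 control tumors, and the diamonds lie at the top of their group for Tnf, Rel and Birc3 and at the bottom for Nfkb2.

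Against isotype control, the Tnf difference was 0.93 ± 0.34 (SE) in the WT combination (1.90-fold), 1.16 ± 0.34 in the FcD combination (2.24-fold) and 0.69 ± 0.34 in the anti-TGF-β combination (1.61-fold). In edgeR's quasi-likelihood test over all 40 mice none passed an adjusted p of 0.05 (adjusted p = 0.162, 0.225 and 0.253, unadjusted p = 0.0103, 0.00173 and 0.0526). The single mAbs differed by 0.30 (anti-TGF-β), 0.23 (anti-PD-1 FcS), -0.0036 (WT) and -0.044 (FcD), each with an SE of 0.34. The first and second of these rest on 1 mouse each: without mouse 48 the anti-TGF-β difference was -0.16, and without mouse 52 the anti-PD-1 FcS difference was -0.27. Within the lower and the upper numbers the Tnf difference kept its sign in the 3 combinations: 0.41 in libraries 41 to 60 and 1.25 in 61 to 80 for the WT combination, 0.94 and 1.35 for the FcD combination, and 0.70 and 0.67 for the anti-TGF-β combination.

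Sod2 encodes the mitochondrial manganese superoxide dismutase, an antioxidant survival gene switched on by TNF. It lies at chr17:13006846-13040063 on the plus strand and was the member with the least spread, 71.6 to 118 CPM over all tumors. Control tumors had 82.1, 73.2, 80.5, 71.6 and 72.4 CPM. The FcD combination had 118, 93.4, 101, 112 and 94.5, the anti-TGF-β combination 104, 104, 117, 86.2 and 103, and the WT combination 104, 92.0, 83.6, 88.0 and 92.1. All 15 of these tumors exceeded all control tumors.

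The Sod2 differences from control were 0.45 ± 0.09 (FcD combination), 0.44 ± 0.09 (anti-TGF-β combination) and 0.27 ± 0.09 (WT combination). Their unadjusted p in edgeR's quasi-likelihood test were 1.23e-05, 1.95e-05 and 0.00386, the smallest among the members for the first and second of these groups. Adjusted over all genes they were 0.134, 0.0891 and 0.159, so none passed. In the anti-TGF-β combination the adjusted p of Sod2 fell to 0.0111 without mouse 53, 0.0318 without the control mouse 63 and 0.0349 without mouse 66, fits in which 13.4%, 4.88% and 0.00669% of all tested genes passed. In the lower and the upper numbers the Sod2 differences were 0.42 and 0.46 (FcD combination), 0.43 and 0.45 (anti-TGF-β combination), and 0.33 and 0.23 (WT combination). The means with a single mAb lay between, 79.7 ± 5.33 (FcD), 82.7 ± 6.44 (WT), 85.1 ± 6.54 (anti-PD-1 FcS) and 88.4 ± 14.5 CPM (anti-TGF-β, of which mouse 48 had 114), against 76.0 ± 4.96 in controls. The anti-TGF-β difference was 0.22 ± 0.09 (edgeR unadjusted p = 0.019, adjusted p = 1.00), and without mouse 48 no member had an unadjusted p under 0.05 in that group. The share of all genes under 0.05 without mouse 48 is not given here, and with every mouse it was 2.32%.

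The inhibitors are Tnfaip3 and Nfkbia. Tnfaip3 (chr10:19000910-19015657, minus strand) encodes A20, a ubiquitin-editing enzyme that shuts down signaling below the TNF receptor. It averaged 62.0 ± 12.0 CPM in the WT combination and 63.4 ± 15.5 in the FcD combination, against 47.2 ± 8.45 in controls. Control tumors ran from 36.7 to 56.4 CPM, the WT combination had 60.4, 44.5, 66.7, 60.5 and 77.7, and the FcD combination 85.2, 43.7, 60.2, 70.7 and 57.3. In both combinations 4 of 5 tumors exceeded all controls, and mice 55 and 50 did not. The anti-TGF-β combination (46.9 ± 10.03 CPM) and the single mAbs (44.3 to 46.9 CPM as group means) were near the controls.

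The Tnfaip3 differences from control were 0.39 ± 0.17 (WT combination), 0.43 ± 0.17 (FcD combination) and -0.0093 ± 0.17 (anti-TGF-β combination), with adjusted p of 0.192, 0.248 and 0.980 in edgeR. By number, 41 to 60 and 61 to 80, the WT combination gave 0.03 and 0.61, and the FcD combination 0.30 and 0.52. Nfkbia (chr12:55489410-55492647, minus strand), the gene of IκBα, averaged 138 ± 19.7 CPM in the FcD combination, 131 ± 17.3 in the anti-TGF-β combination and 129 ± 11.8 in the WT combination, against 116 ± 15.2 in controls, whose range of 92.6 to 133 CPM it overlapped in each. Its differences were 0.25, 0.18 and 0.15, each with an SE of 0.14, and edgeR's unadjusted p were 0.081, 0.213 and 0.287. The highest Nfkbia level of all, 185 CPM, was in mouse 73, given anti-GARP:TGF-β1 WT alone.

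Of the NF-κB subunits, Rel was higher and Nfkb2 lower in the WT and FcD combinations than in controls, at an unadjusted p under 0.05 that did not pass adjustment. Rel (chr11:23736847-23770970, minus strand) encodes c-Rel, a subunit of lymphoid and myeloid cells. Control tumors had 18.0, 21.7, 13.4, 17.1 and 17.2 CPM. The FcD combination had 26.3, 17.6, 24.05, 25.6 and 25.6, of which 4 exceeded all controls and mouse 50 did not. The WT combination had 17.9, 16.4, 23.1, 22.0 and 42.3, so its mean of 24.3 ± 10.4 CPM leaned on mouse 77, without which the difference from control was 0.18 in place of 0.48.

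The Rel differences from control were 0.48 ± 0.21 (WT combination), 0.45 ± 0.21 (FcD combination) and -0.09 ± 0.22 (anti-TGF-β combination, 16.4 ± 3.97 CPM), with adjusted p of 0.207, 0.295 and 0.829 in edgeR. In the lower numbers the WT difference of Rel was -0.21, and in the upper numbers it was 0.87. The FcD difference was 0.19 and 0.68. In the single mAb groups the means of Rel were 15.8 to 18.4 CPM.

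Nfkb2 (chr19:46304320-46312385, plus strand) encodes p100, which serves both as a precursor of p52 and as an inhibitor that retains Relb. It overlaps AC114539.1 and Psd on the other strand, and reads of these could be mixed in if the counting ignored strand, which the sources used here do not give. Control tumors had 361, 368, 403, 427 and 420 CPM. All 5 tumors of the WT combination lay below them, at 323, 337, 305, 333 and 186 CPM, and so did 4 of the FcD combination, at 286, 318, 269 and 354, the exception being mouse 50 with 380. The anti-TGF-β combination had 276 in mouse 53 and 360 to 408 in the other 4.

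The Nfkb2 differences from control were -0.42 ± 0.13 (WT combination), -0.30 ± 0.13 (FcD combination) and -0.10 ± 0.13 (anti-TGF-β combination), with adjusted p of 0.159, 0.263 and 0.680 in edgeR. By number, 41 to 60 and 61 to 80, they were -0.14 and -0.61 (WT combination), -0.15 and -0.42 (FcD combination), and -0.19 and -0.05 (anti-TGF-β combination).

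The other subunits are Nfkb1 and Relb. Nfkb1 (chr3:135584655-135691547, minus strand, overlapping Gm43430 on the same strand) encodes p105, the precursor of p50. It averaged 128 ± 19.9 CPM in the anti-TGF-β combination, 157 ± 20.2 in the WT combination and 156 ± 16.6 in the FcD combination, against 148 ± 10.4 in controls. Its differences from control were -0.21 ± 0.11, 0.08 ± 0.11 and 0.08 ± 0.11, with edgeR unadjusted p of 0.0578, 0.452 and 0.473. Relb (chr7:19606217-19629438, minus strand), the subunit of the non-canonical pathway, ran from 66.3 to 76.5 CPM as group means, and its differences from control were between -0.04 and 0.16 in the 7 groups, with an SE of 0.12. Mouse 77 had the lowest Relb level (49.4 CPM) and mouse 73 the highest (104 CPM).

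Birc3 (chr9:7848699-7873186, minus strand) encodes cIAP2, a ubiquitin ligase that protects cells from TNF-induced death. Control tumors had 23.4, 23.4, 21.2, 22.9 and 27.1 CPM. In the FcD combination 4 tumors had 36.6 to 38.5 CPM and mouse 50 had 21.3. In the WT combination mouse 77 had 71.8 CPM and the other 4 had 22.2 to 33.1, of which only mouse 64 exceeded all controls. The differences were 0.54 ± 0.25 (FcD combination), 0.58 ± 0.25 (WT combination) and 0.20 ± 0.25 (anti-TGF-β combination), with adjusted p of 0.280, 0.196 and 0.666 in edgeR. Without mice 48, 52, 53 and 77, the WT difference of Birc3 was 0.14. From the lower numbers alone it was -0.0050, and from the upper numbers 0.85.

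Tnfaip2 (chr12:111442469-111455018, plus strand, overlapping Gm40578 on the other strand), a TNF-induced gene of cell protrusions and trafficking, had group means of 308 to 351 CPM. Its difference from control was between -0.09 and 0.10 in the 7 groups, with an SE of 0.11. Its lowest level, 227 CPM, was in mouse 77.

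Counted together, 0 of the 10 members passed an adjusted p of 0.05 in any of the 7 comparisons with isotype control, where 0% of the 14760 genes tested passed. At an unadjusted p under 0.05 in edgeR, 6 members differed in the WT combination, 5 higher and 1 lower, against 20.7% of all genes, 13.2% higher and 7.47% lower. In the FcD combination the same count held, 5 higher and 1 lower, against 16.6% of all genes, 10.7% higher and 5.85% lower. The 5 higher were Tnf, Tnfaip3, Rel, Birc3 and Sod2 in both, and the lower was Nfkb2. In the anti-TGF-β combination 1 member, Sod2, was past that limit, against 20.1% of all genes, 8.49% higher and 11.6% lower. With 1 mAb, 1 member was past it for anti-TGF-β (2.32% of all genes) and 0 for anti-PD-1 FcS (0.955%), anti-GARP:TGF-β1 WT (0.969%) and FcD (0.474%).

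The median difference over the 10 members was 0.21 in the WT combination, 0.34 in the FcD combination and 0.05 in the anti-TGF-β combination, beside 0.013, -0.0040 and 0.022 over all tested genes. Groups that did not overlap with the controls were found for 2 members higher and 1 lower in the WT combination (2.97% of all genes did not overlap), 2 higher in the FcD combination (3.25%) and 2 higher in the anti-TGF-β combination (3.03%). All 7 comparisons share the same 5 control tumors. The number of members past the unadjusted limit depended on single mice. Without mouse 77 it was 3 in the WT combination (5.85% of all genes in that fit), and without the control mouse 63 also 3 (16.6%). In the FcD combination it was 2 without mouse 44 (9.14%) and 3 without mouse 71, 63 or 74 (8.02%, 14.3% and 12%). In the anti-TGF-β combination it was 3 without mouse 47, 59, 63, 66 or 77 (20.4%, 20.2%, 27%, 20% and 23.3%). The p-values rest on 1 estimate of spread per gene, shared by all 8 groups, also those not compared. The labels say nothing more of how the mice were housed or paired.

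**Figure D2:**
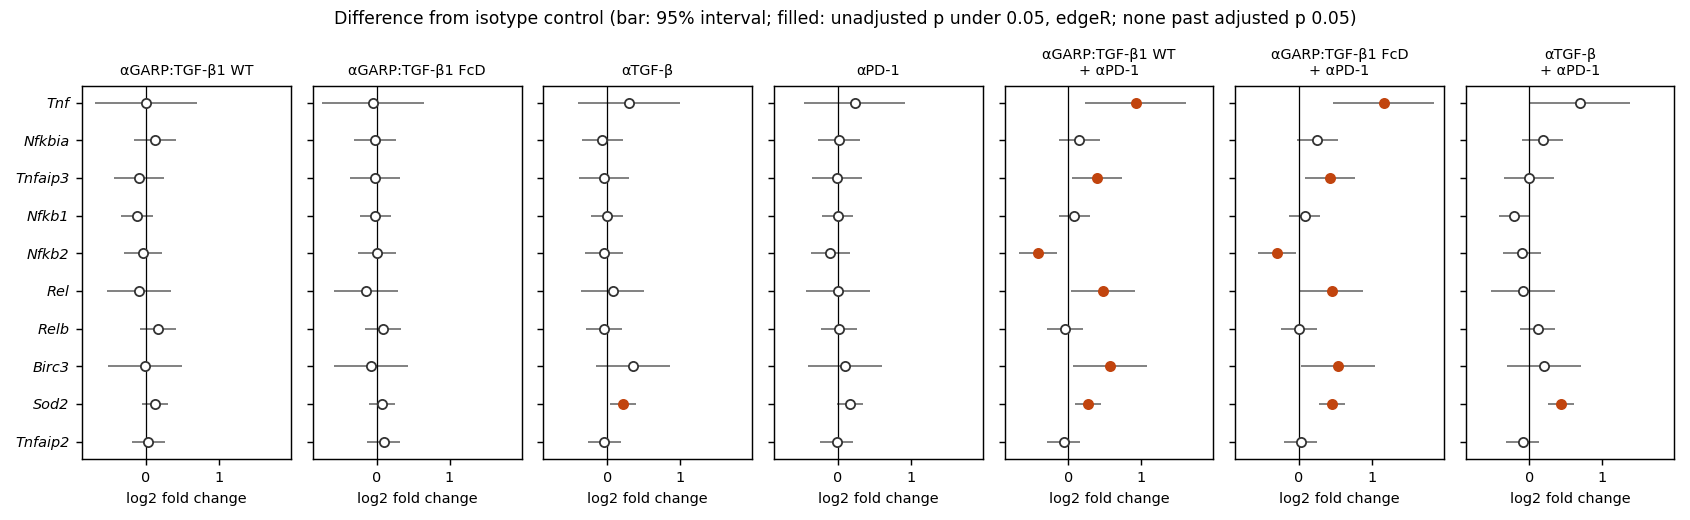
Log2 fold change against isotype control (x axis) of the 10 genes in each of 7 mAb groups, with 95% intervals from edgeR and filled points for an unadjusted p under 0.05. Filled points are 6 of 10 genes in the WT and FcD combinations and 1 in the anti-TGF-β combination, and no gene passed an adjusted p of 0.05.

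The WT combination was also compared with controls within each part of the numbering. In libraries 61 to 80, with 3 tumors in each group compared, Tnf, Tnfaip3, Nfkb2, Rel and Birc3 differed by 1.25, 0.61, -0.61, 0.87 and 0.85 and passed an adjusted p of 0.05 in edgeR (0.0244, 0.0274, 0.0314, 0.0276 and 0.0499), and so did 14.2% of the 15181 genes tested there. In libraries 41 to 60, with 2 tumors in each, the same genes differed by 0.41, 0.03, -0.14, -0.21 and -0.0050. Mouse 77 is among the upper numbers, and its part in this was not tested within them. The epithelial marker sum in the upper numbers was 28.3 to 244 CPM in the WT combination and 21.2 to 30.2 in controls, and in the lower numbers 9.19 to 10.6 and 6.87 to 7.73. In the FcD and anti-TGF-β combinations it was 59.5 to 517 and 26.8 to 95.1 in the upper and 7.29 to 12.8 and 5.08 to 7.92 in the lower numbers. Its part in the members' differences was not tested. The FcD combination had the same sign in both for these genes and Sod2, and so had the anti-TGF-β combination for every member but Tnfaip3 (0.066 and -0.070). In the upper numbers 1 member, Tnf, passed in the FcD combination against controls (1.75% of all genes), and 0 in the anti-TGF-β combination (0%).

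**Figure D3:**
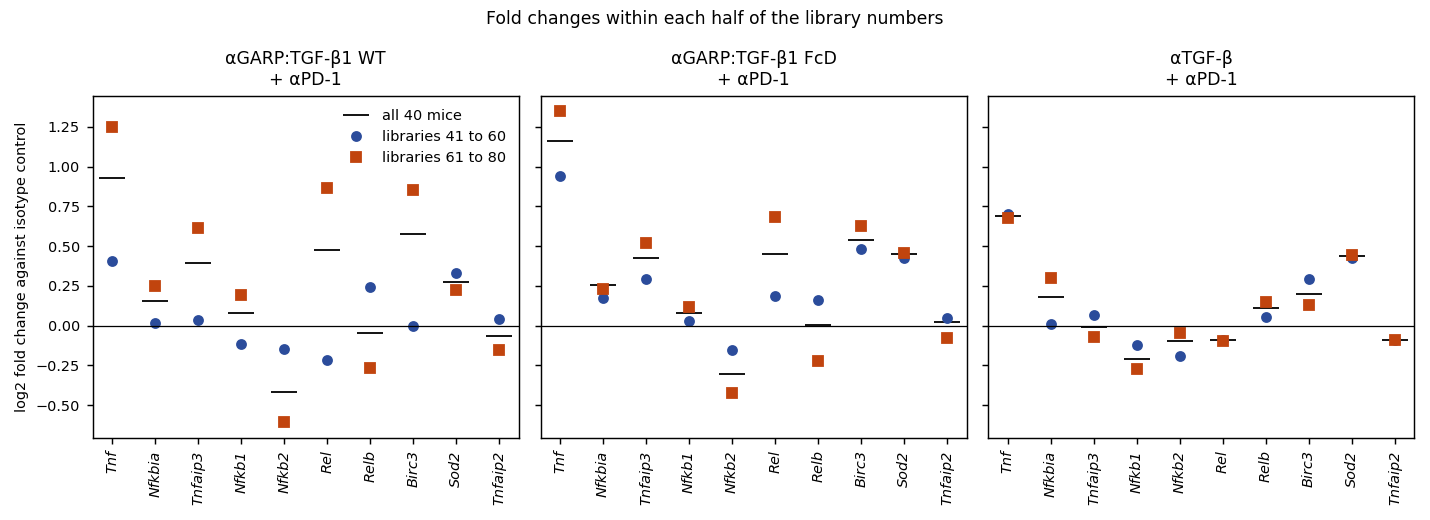
Log2 fold change against isotype control (y axis) of each gene (x axis) in the 3 combinations, from all 40 mice (dash), libraries 41 to 60 (circles) and libraries 61 to 80 (squares). In the WT combination circles and squares of Rel are on opposite sides of 0 (-0.21 and 0.87), whereas those of Tnf and Sod2 lie above 0 in every panel.

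Next, the combinations were compared with anti-PD-1 FcS alone. Again 0 members passed an adjusted p of 0.05 (0% of all genes with the WT and FcD forms, 0.00678% with anti-TGF-β). At an unadjusted p under 0.05 there were 4 for WT (17.2% of all genes), 4 for FcD (10.7%) and 1 for anti-TGF-β (17.1%). Tnf differed from anti-PD-1 FcS alone by 0.70 ± 0.34, 0.93 ± 0.34 and 0.46 ± 0.34, and Sod2 by 0.11 ± 0.09, 0.29 ± 0.09 and 0.27 ± 0.09, for the WT, FcD and anti-TGF-β combinations. Without mouse 52 the Tnf differences were 1.20, 1.44 and 0.96 in the same order. Without mouse 47, which had the lowest Tnf, those of the WT and anti-TGF-β combinations were 0.45 and 0.22. The FcD value without mouse 47 is not given here. These 3 comparisons share the anti-PD-1 tumors. Mouse 52, with 21.3 CPM of Tnf, is 1 of the 5, and without it Tnf passed in the WT combination, with an adjusted p of 0.0414 in edgeR, where 3.6% of all genes passed, but not in the others (0.142 and 0.192). This tumor had 164 CPM of 6 skeletal muscle markers (group median 1.99) and 27.9 CPM of 5 keratinocyte markers (group median 5.01), and their part in its Tnf level was not tested. In that comparison 0 members were past the unadjusted limit without mouse 77 (5.42% of all genes), 1 without mouse 47 or 54 (9.61% and 10.4%) and 2 without mouse 76 (14.1%), and the FcD comparison had 2 without mouse 44, 47 or 54 (5.4%, 7.63% and 6.3%).

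Compared with the same mAb given without anti-PD-1, 0 members passed the adjusted limit (0% of all genes in each). At an unadjusted p under 0.05 there were 5 for WT (29.5% of all genes), 6 for FcD (20.9%) and 1 for anti-TGF-β (9.84%). Tnf was 0.93 ± 0.34 above anti-GARP:TGF-β1 WT alone, and 1.21 ± 0.34 above FcD alone. In both cases all 5 tumors of the combination exceeded all 5 with the single mAb. Nfkb2 lay wholly below in both, and Sod2 wholly above FcD alone. The share of all genes that did not overlap was not computed for these comparisons. Over anti-TGF-β alone the Tnf difference was 0.39 ± 0.34, and without mouse 48 it was 0.86 ± 0.33 (edgeR adjusted p = 0.484). The adjusted p of Tnf in edgeR were 0.0985, 0.126 and 0.645. Leaving out mouse 55 brought Tnfaip3, Nfkb2 and Rel past the adjusted limit in the WT comparison (0.0418, 0.0474 and 0.0438) together with 11.4% of all tested genes, and leaving out mouse 50 did so for Tnf and Sod2 in the FcD comparison (0.0467 and 0.0391) together with 4.81%. In the upper numbers alone 6 members passed in the WT comparison, against 21% of all genes. There 0 passed in the FcD and anti-TGF-β comparisons, whose shares of all genes are not given here. Without mouse 77 the WT comparison had 3 members past the unadjusted limit (15.1% of all genes).

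The interaction, by how much the combination exceeded the sum of both mAbs' own differences, was estimated directly. No member passed an adjusted p of 0.05 (0% of all genes for each of the 3 mAbs). For Tnf it was 0.98 ± 0.48 with FcD (95% interval -0.0044 to 1.96), 0.70 ± 0.48 with WT (-0.28 to 1.68) and 0.16 ± 0.48 with anti-TGF-β (-0.82 to 1.14). These values rested on single mice. Without mouse 52 they were 1.48, 1.20 and 0.66, and without mouse 47 those of WT and anti-TGF-β were 0.45 and -0.071. That of FcD rests on the same anti-PD-1 tumors, and its value without mouse 47 is not given here. The anti-TGF-β value was 0.62 without mouse 48, and 1.01 without mice 48, 52, 53 and 77, where that of FcD was 1.48 with an adjusted p of 0.0318 in edgeR (2.77% of all genes passed). At an unadjusted p under 0.05 in edgeR there was 1 member for WT, Tnfaip3 with 0.49 ± 0.24 (8.75% of all genes), and 0 for FcD (4.49%) and anti-TGF-β (2.3%). Without mouse 52, 3 members were past that limit for WT (18.5% of all genes) and 4 for FcD (11.1%). For WT the count was 0 when any of 10 other mice was left out (46, 47, 49, 51, 54, 64, 69, 74, 76 or 77), with 3.37% to 11.2% of all genes past it.

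No difference between the FcD and WT forms of anti-GARP:TGF-β1 passed the test. With anti-PD-1, FcD minus WT was 0.24 for Tnf (95% interval -0.44 to 0.91), 0.18 for Sod2 (-0.0031 to 0.36), 0.03 for Tnfaip3 (-0.31 to 0.37), -0.03 for Rel (-0.46 to 0.40) and 0.11 for Nfkb2 (-0.15 to 0.38). Without anti-PD-1 the Tnf difference was -0.04 (-0.74 to 0.66) and the Sod2 difference -0.05 (-0.23 to 0.13). In either comparison 0 members had an adjusted p under 0.05 (0% of all genes) or an unadjusted one (1.3% of all genes with anti-PD-1 and 1.4% without). The intervals leave room for a 1.88-fold higher Tnf in the FcD than in the WT combination.

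The anti-TGF-β combination was then set against each anti-GARP:TGF-β1 combination. With the WT form, 0 members and 18.2% of all genes passed an adjusted p of 0.05. At an unadjusted p under 0.05 there were 4 members, against 36.6% of all genes: Nfkb2 with 0.32 ± 0.13 (anti-TGF-β minus WT), and Tnfaip3, Nfkb1 and Rel with -0.40 ± 0.17, -0.29 ± 0.11 and -0.57 ± 0.22. Their adjusted p in edgeR were 0.078, 0.0839, 0.0526 and 0.0574. With the FcD form, 0 members and 6.46% of all genes passed, and at the unadjusted limit (31.2% of all genes) there were 3: Tnfaip3 with -0.44 ± 0.17, Nfkb1 with -0.29 ± 0.11 and Rel with -0.54 ± 0.22. Sod2 differed by 0.16 ± 0.09 and -0.014 ± 0.09, and Tnf by -0.24 ± 0.34 and -0.48 ± 0.34. These comparisons share the tumors of the anti-TGF-β combination.

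Whether members passed here depended on single mice. Without mouse 53, whose Rel level of 23.2 CPM stood above 13.1 to 15.8 in the other 4 of its group, Rel, Tnfaip3, Nfkb1 and Nfkb2 had adjusted p of 0.013, 0.0187, 0.00987 and 0.0134 in edgeR against the WT combination, and Rel, Tnfaip3 and Nfkb1 had 0.0202, 0.016 and 0.0132 against the FcD combination. In these fits 35.5% and 30.8% of all tested genes passed, so 4 and 3 of 10 members were near the background. With mouse 77 left out, 1 member was past the unadjusted limit against the WT combination (31.4% of all genes), and Rel and Nfkb2 differed by -0.28 and 0.19. Without mouse 55, 4 members passed against the WT combination (26.1% of all genes), and without mouse 50, 3 passed against the FcD combination (28.5%). In the upper numbers alone 5 and 3 members passed, against 37.3% and 25.6% of all genes. In the lower numbers the signs against the WT combination turned for Tnf (0.29), Tnfaip3 (0.03), Rel (0.12), Nfkb2 (-0.05), Relb (-0.19), Birc3 (0.30) and Nfkbia (-0.0016), and in the upper numbers these genes gave -0.57, -0.68, -0.96, 0.56, 0.41, -0.72 and 0.05. Each had 2 or 3 tumors per group.

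**Figure D4:**
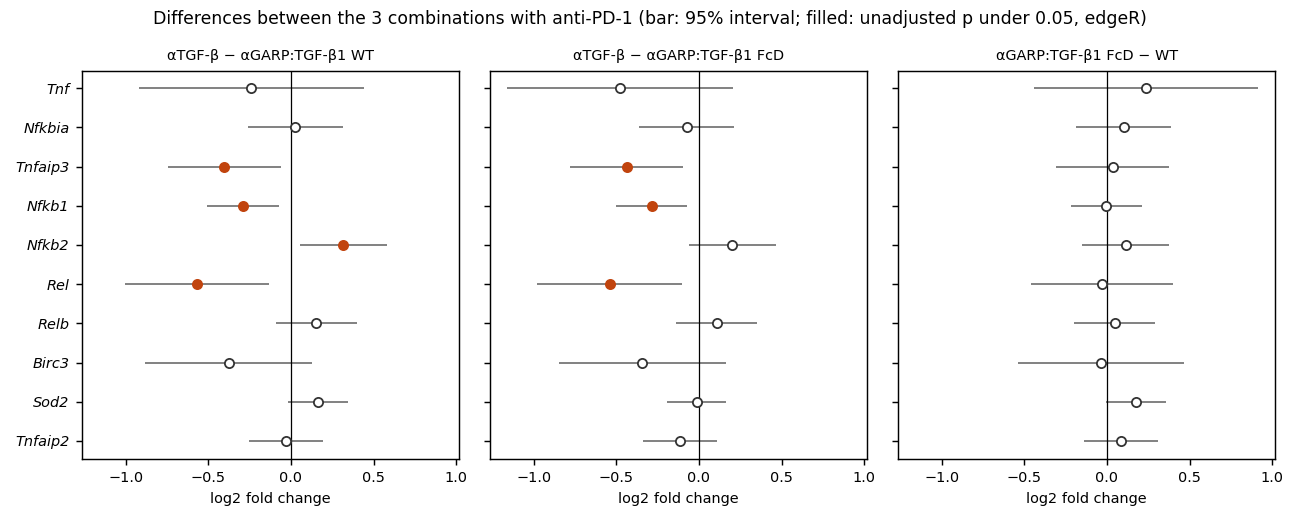
Log2 fold change (x axis) of the 10 genes between the 3 combinations with anti-PD-1, with 95% intervals from edgeR and filled points for an unadjusted p under 0.05. Rel, Tnfaip3 and Nfkb1 lie below 0 in both panels with anti-TGF-β, and no point is filled between the FcD and WT forms.

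Across all 40 tumors Tnf varied with most of the other members. Tnf also had an r of 0.72 with the first principal component of all tested genes. The share of all genes that vary with Tnf was not computed, so these values are not set against a background. Pearson's r of log2 CPM with Tnf was 0.72 for Rel, 0.71 for Birc3, 0.67 for Sod2, 0.66 for Tnfaip3 and -0.72 for Nfkb2, each with a permutation p of 1e-05, the smallest that 100000 resamples can give, and an adjusted p over the 9 pairs of 1.8e-05. For Nfkbia and Nfkb1 r was 0.37 (permutation p = 0.0188 and 0.0192, adjusted p = 0.0247 for both). Relb (r = -0.29, permutation p = 0.0664) and Tnfaip2 (r = -0.21, permutation p = 0.198) did not pass. Spearman's rho was 0.63, 0.65, 0.74, 0.57 and -0.75 for Rel, Birc3, Sod2, Tnfaip3 and Nfkb2 (adjusted permutation p = 0.00011, 3e-05, 3e-05, 0.00034 and 3e-05), 0.50 for Nfkbia (0.0019) and 0.37 for Nfkb1 (0.0253). For Relb and Tnfaip2 rho was -0.15 and -0.16 (adjusted permutation p = 0.358 for both). The permutations ran over all 40 tumors regardless of group, so their p cover differences between groups as well as within them.

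Rel, Birc3, Sod2, Tnfaip3 and Nfkb2 kept the sign of r without the 2 mice farthest from the Tnf median, mice 47 and 77: r was then 0.66, 0.68, 0.72, 0.58 and -0.77 in that order. With each group's mean subtracted, which was not tested, r was 0.67, 0.63, 0.45, 0.53 and -0.63 for these. For Nfkbia and Nfkb1 r was 0.32 and 0.24 without both mice, and 0.15 and 0.45 with group means subtracted. Taken by number, 41 to 60 and 61 to 80, r was 0.74 and 0.72 for Rel, 0.70 and 0.73 for Birc3, 0.73 and 0.62 for Sod2, 0.72 and 0.60 for Tnfaip3, and -0.75 and -0.76 for Nfkb2. For Nfkbia it was 0.51 and 0.27, and for Nfkb1 0.57 and 0.20. All points share 1 normalization.

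**Figure D5:**
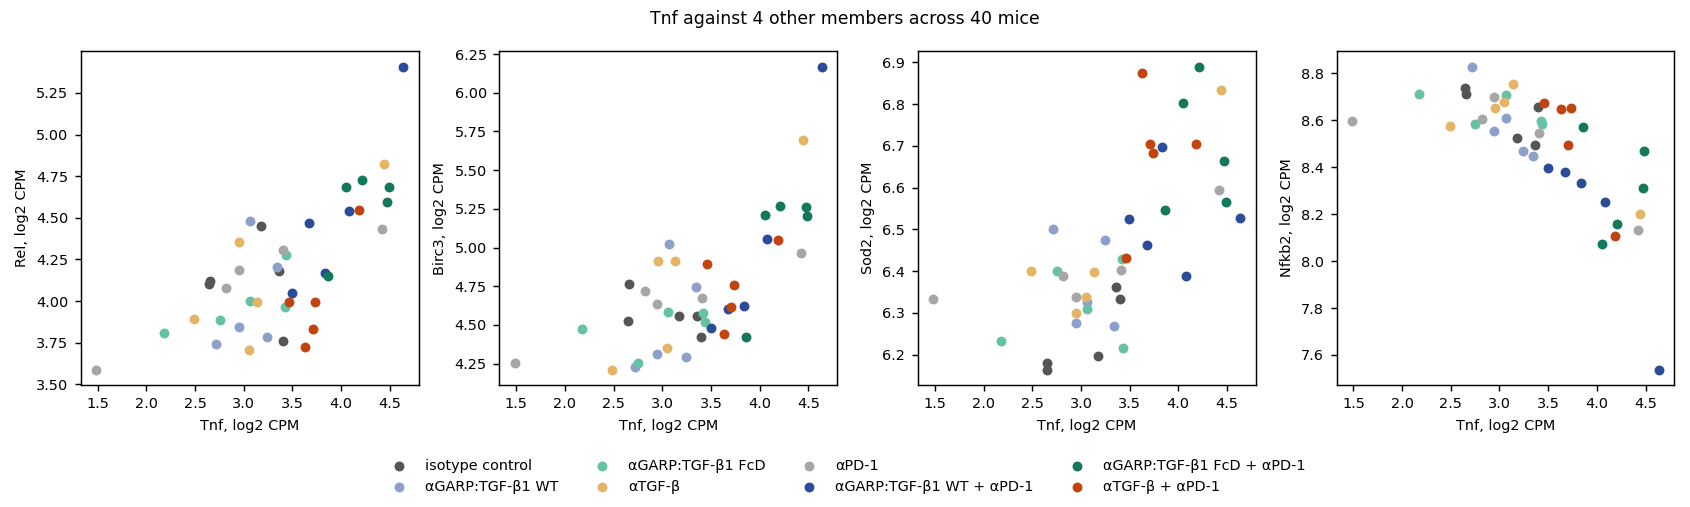
Log2 CPM of Rel, Birc3, Sod2 and Nfkb2 (y axes) against Tnf (x axis) in 40 tumors, colored by group. Rel, Birc3 and Sod2 are higher in tumors with more Tnf (r = 0.72, 0.71 and 0.67) and Nfkb2 is lower (r = -0.72), and the tumor at the far right of every panel is mouse 77.

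The main axis of variation among the tumors carried several members with it. The first principal component held 35.8% of the variance of all tested genes, and its r with the members was 0.88 for Birc3, 0.87 for Rel, 0.72 for Tnfaip3 and Tnf, 0.61 for Nfkb1, 0.53 for Sod2, 0.20 for Nfkbia, -0.41 for Tnfaip2, -0.64 for Relb and -0.89 for Nfkb2 (40 tumors, as a description). Leukocyte markers are given next as ranges by group, and their relation to this component was not tested. The summed level of 6 macrophage markers, none at 0 in any tumor, ran from 1217 to 1790 CPM in controls, 1309 to 5944 in the WT combination, 1617 to 2595 in the FcD combination and 1742 to 2248 in the anti-TGF-β combination. Mouse 77 had 5944 and mouse 48, the highest with anti-TGF-β alone, 2989.

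The sum of 6 dendritic cell markers was 23.3 to 33.1 CPM in controls, 27.8 to 67.8 in the WT, 33.6 to 54.9 in the FcD and 28.7 to 38.8 in the anti-TGF-β combination. Zbtb46 had the highest level of these 6, with a median of 17.1 CPM over all tumors. The FcD combination lay wholly above the controls in this sum and in that of NK cell markers below, and neither gap was tested. Lymphoid and granulocyte markers were also summed. The sum of 4 NK cell markers was 23.8 to 36.8 CPM in controls, 35.1 to 98.5 in the WT, 39.2 to 61.0 in the FcD and 35.1 to 52.1 in the anti-TGF-β combination. The sum of 7 T cell markers was 24.8 to 71.3, 26.6 to 296, 26.6 to 120 and 20.3 to 67.4 CPM in these groups. Of 6 neutrophil markers, 5 were in the table, and their sum was 22.2 to 64.1, 40.7 to 182, 36.7 to 172 and 33.8 to 123 CPM. None of these markers was at 0 in any tumor. The sum of 4 B cell markers was 1.61 to 4.48, 1.32 to 27.8, 3.39 to 11.3 and 3.51 to 84.4 CPM, and in the anti-TGF-β combination mouse 68 had 84.4 and the other 4 had at most 4.86. The sum of 5 adipocyte markers was 3.67 to 61.3 CPM in controls, 18.3 to 82.9, 29.3 to 621 and 3.05 to 114 in the WT, FcD and anti-TGF-β combinations, and among single mAbs it reached 341 (anti-TGF-β), 270 (anti-PD-1 FcS), 148 (WT) and 36.8 (FcD). The sum of 6 epithelial markers had a median of 21.2 CPM in controls and 28.3, 12.8 and 26.8 in the WT, FcD and anti-TGF-β combinations, each pooling both parts of the numbering, and mouse 71 had 517 and mouse 77 had 244.

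Markers higher than in controls at an unadjusted p under 0.05 in edgeR were counted for the WT, FcD and anti-TGF-β combinations, beside 13.2%, 10.7% and 8.49% of all genes higher. They were 4, 2 and 1 of 6 for macrophages, 3, 4 and 0 of 6 for dendritic cells, 2, 0 and 2 of 4 for NK cells, 1, 1 and 1 of 7 for T cells and 2, 3 and 3 of 5 for neutrophils. For B cells they were 0, 0 and 4 of 4, for endothelial cells 3, 1 and 0 of 4, and for fibroblasts 0, 2 and 0 of 6. For adipocytes they were 0, 5 and 0 of 5, for epithelial cells 2, 6 and 0 of 6, for keratinocytes 0, 2 and 0 of 3 and for skeletal muscle 0, 0 and 0 of 4. No marker was lower at that limit, and none passed adjustment. Many of these counts rested on 1 mouse, as fits chosen after seeing the data showed. Without mouse 77 the WT combination had 1 neutrophil marker and 0 of every other list past that limit (2.81% of all genes higher). Without mouse 71 the FcD combination had 0 for macrophages, dendritic, endothelial and epithelial cells and keratinocytes, and 2 for adipocytes (5.3% of all genes higher). Without mouse 44 it had 0 for macrophages and endothelial cells, 2 for dendritic cells and 1 for neutrophils (6.61%). Without mouse 68 the anti-TGF-β combination had 0 for B cells (5.34%). Mice 48, 52, 53 and 77 had 146, 84.6, 67.3 and 296 CPM of T cell markers and 228, 127, 139 and 431 CPM of 4 endothelial markers. The part of these cells in the levels of Tnf and the other members was not tested.

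The genes outside the set whose level over 40 tumors was most like the mean of the 10 members, each standardized, were Irak2 (r = 0.85), Atf3, Cd274, Clec4e and Acod1 (r = 0.80 to 0.81). Irak2 is a kinase of the IL-1 and Toll-like receptor pathway, Atf3 a stress-induced transcription factor, Cd274 encodes PD-L1, Clec4e a receptor of macrophages, and Acod1 the enzyme that makes itaconate in activated macrophages. They were chosen as the highest r among all tested genes, so the values are a description.

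Other genes of the TNF and NF-κB pathway were counted in lists by role, 64 of whose 67 genes were tested. Against isotype control none passed an adjusted p of 0.05 in any combination. At an unadjusted p under 0.05 in edgeR, 18 were higher and 3 lower in the WT combination, 21 and 1 in the FcD combination and 16 and 3 in the anti-TGF-β combination, to be read against the shares of all genes given above (20.7%, 16.6% and 20.1%). By role, the median difference of the 7 tested ligands was 0.54, 0.59 and 0.40 in the WT, FcD and anti-TGF-β combinations, that of 13 receptors and adaptors 0.02, 0.07 and 0.11, that of 7 kinases 0.18, 0.14 and -0.06, that of 12 genes of Rela, IκB proteins and deubiquitinases 0.23, 0.15 and 0.15, and that of 25 target genes 0.34, 0.40 and 0.32.

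The pathway genes with the smallest p against isotype control are given as values, since none passed (adjusted p of 0.108 to 0.225 in edgeR). Nos2, the inducible nitric oxide synthase of activated macrophages, averaged 72.9 ± 25.6 CPM in the WT combination and 93.3 ± 58.4 in the FcD combination, against 19.4 ± 10.8 in controls, a difference of 1.90 ± 0.55 and 2.26 ± 0.56. In the WT combination Tnfrsf1b, the second TNF receptor, differed by 0.82 ± 0.24 and the kinase gene Ikbke by 0.94 ± 0.28. In the FcD combination the chemokine gene Ccl3 differed by 1.49 ± 0.43 and the cytokine gene Il1a by 1.16 ± 0.34. In the anti-TGF-β combination Cxcl10, a chemokine gene, differed by 0.92 ± 0.24, the receptor gene Cd40 by 0.96 ± 0.27 and Tnfrsf1a, the main TNF receptor, by 0.24 ± 0.07.

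Pathway genes with a small p for each single mAb follow. Against isotype control Il6, Il1a and Cxcl10 differed by 1.39 ± 0.51, 0.94 ± 0.34 and 0.54 ± 0.24 with anti-TGF-β, and Nos2 and Fosl1 by 0.83 ± 0.55 and -0.23 ± 0.17 with anti-PD-1 FcS. Otulin, Tradd and Cxcl1 differed by 0.19 ± 0.10, 0.21 ± 0.12 and 0.76 ± 0.45 with anti-GARP:TGF-β1 WT, and Cyld, Il1a and Il6 by -0.15 ± 0.08, 0.57 ± 0.35 and 0.74 ± 0.52 with FcD. All of these had an adjusted p of 1.00 in edgeR. Directly between the combinations, anti-TGF-β minus WT, 7 of the 64 pathway genes were higher and 10 lower at an adjusted p of 0.05, among them 3 of 7 kinases lower, beside 18.2% of all genes. For anti-TGF-β minus FcD 2 were higher and 2 lower, beside 6.46% of all genes. These calls do not hold in every fit: 0 genes of any kind passed with only the compared groups, in the WT comparison without mouse 62, 68 or 69, or in the FcD comparison without mouse 44, 57, 60, 62, 66, 68, 71, 75 or 80.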

How the data were processed

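Tumor RNA of 40 mice was sequenced by the authors as stranded mRNA libraries, aligned to GRCm38 with STAR 2.5.3a and counted per gene with HTSeq 0.9.1 (SAMtools 1.6 is also named in the submitters' processing notes), and the deposited values are raw counts per gene. The annotation and strand setting are not given in the sources used here. The file held 27 names that spreadsheet software had converted to dates, and none was a member. Counts were normalized with TMM, filtered with filterByExpr (14760 of 54087 genes) and tested with edgeR 4.0.16 (glmQLFit and glmQLFTest, robust, R 4.3.3) in a single 2-sided model of all 40 mice with a coefficient per group, over 20 comparisons. p-values were adjusted by Benjamini-Hochberg over all 14760 genes. The SE was taken as the absolute log2 fold change over √F, and limma 3.58.1 is loaded with edgeR. CPM use TMM, and log2 CPM a prior count of 2. Correlations were tested with 100000 permutations (numpy 2.4.6, pandas 2.3.3, Python 3.11.15). The tests were checked on simulated data. Exon lengths and positions come from GENCODE M21, promoters from RefSeq (GRCm38.p6).

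All 10 members are named in each comparison, from the pathway lists the 3 genes with the smallest p against isotype control (a gene for anti-PD-1 FcS is not reported here), and the 5 genes most like the members' mean. Members and lists were chosen with earlier results of these data known. Alternatives were DESeq2 size factors, no filter, DESeq2 1.42.0, lower (41 to 60) and upper (61 to 80) library numbers as a covariate or alone, only the compared groups, and each mouse left out. The fit without mice 48, 52, 53 and 77 was chosen after seeing the data.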

Additional observations from a re-analysis of the deposited data

Results flagged for a closer look

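Among 80 sets of 5 tumors (10 genes in 8 groups), 10 held a highest or lowest tumor far from the other 4. The gap was over 0.71 of the set's range, where chance alone gives about 1 in 20. The share of such sets over all tested genes was not computed. Mouse 48 (anti-TGF-β) had 21.6 CPM of Tnf against 5.47 to 8.65 in the other 4, and 114 CPM of Sod2 against 78.7 to 84.4. Mouse 77 (WT combination) had 186 CPM of Nfkb2 against 305 to 337, 42.3 CPM of Rel against 16.4 to 23.1, and 71.8 CPM of Birc3 against 22.2 to 33.1. Mouse 53 (anti-TGF-β combination) had 23.2 CPM of Rel against 13.1 to 15.8, and mouse 52 (anti-PD-1 FcS) had 96.4 CPM of Sod2 against 80.5 to 84.4. These 4 mice also stood apart on the first principal component of all genes.

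In the FcD combination mouse 50 was the low one, with 17.6 CPM of Rel against 24.05 to 26.3 and 21.3 CPM of Birc3 against 36.6 to 38.5. With anti-GARP:TGF-β1 WT alone, mouse 73 had 104 CPM of Relb against 64.4 to 74.5. The 10 sets are not independent, since members vary together within a tumor. No difference between groups in the effect of anti-PD-1 passed an adjusted p of 0.05 for any member.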

How the results depend on the processing

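No paired analysis was possible because the labels give each mouse only its own library number, and replicate numbers within groups follow accession order. With one mouse left out, the number of members with an adjusted p under 0.05, which was 0 in all 20 comparisons, reached 1 (range 0 to 1) for the FcD combination against isotype control (mouse 48), for the anti-TGF-β combination against isotype control (mouse 48, 53, 63, 66 or 77) and for the WT combination against anti-PD-1 FcS (mouse 52). It reached 3 (0 to 3) for the WT combination against WT alone (mouse 55) and for the anti-TGF-β against the FcD combination (mouse 50 or 53), 2 (0 to 2) for the FcD combination against FcD alone (mouse 50), and 4 (0 to 4) for the anti-TGF-β against the WT combination (mouse 53 or 55), and it was 0 to 0 in the others. The shares of all genes called with one mouse left out were up to 0.00672%, 13.4%, 3.6%, 11.4%, 30.8%, 4.81% and 35.5% in these comparisons, in the order given. Counts at an unadjusted p under 0.05 ranged from 3 to 6, 2 to 6 and 1 to 3 for the WT, FcD and anti-TGF-β combinations against isotype control, 0 to 5, 2 to 5 and 1 to 2 against anti-PD-1 FcS, and 3 to 7, 4 to 7 and 0 to 3 against the same mAb alone (3 without mouse 48, with 10.2% of all genes, and 0 without mouse 62, with 3.52%). In these fits 5.85% to 28.3%, 8.02% to 29.9% and 11.5% to 29.8% of all genes were past the limit against isotype control, 5.42% to 25.6%, 4.74% to 25.2% and 9.27% to 28.1% against anti-PD-1 FcS, and 15.1% to 37.1%, 12.5% to 33.6% and 3.52% to 24.9% against the same mAb. The counts ranged from 0 to 1 for anti-TGF-β alone, anti-PD-1 FcS alone and FcD against WT combinations, 1 to 5 and 2 to 4 for the anti-TGF-β against the WT and FcD combinations, 0 to 3 and 0 to 4 for the WT and FcD interactions, and 0 to 0 for the anti-TGF-β interaction and the anti-GARP:TGF-β1 mAbs alone. In the full fit 2.32%, 0.955%, 1.3%, 36.6%, 31.2%, 8.75%, 4.49% and 2.3% of all genes were past the limit, in this order up to the anti-TGF-β interaction. The ranges of these shares with a mouse left out are not given here.

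DESeq2's Wald test gave adjusted counts of 1 (FcD combination against control), 1 (anti-TGF-β combination against control), 2 (FcD combination against FcD alone) and 2 (anti-TGF-β against WT combination), beside 0.0709%, 1.1%, 1.28% and 24.7% of all genes with an adjusted p, and unadjusted counts of 2 (anti-TGF-β combination against control, 10.5% of all genes) and 1 (FcD interaction, 2.99%). The library-number covariate gave 1 adjusted call (FcD combination against control, 0.115%), and no filter gave 2 unadjusted ones (anti-TGF-β combination against anti-PD-1 FcS, 10.2%). Only the compared groups gave adjusted counts of 2 (FcD combination against control, 1.3% of all genes) and 4 (FcD combination against FcD alone, 3.49%), and unadjusted counts of 0 (anti-TGF-β alone, 1.46%), 1 (anti-PD-1 FcS alone, 1.37%), 2 (anti-TGF-β combination against control, 20.9%), 0 (WT combination against anti-PD-1 FcS, 6.89%), 0 (anti-TGF-β combination against anti-TGF-β alone, 5.72%), 0 (WT interaction, 8.52%) and 2 (FcD interaction, 9.25%). DESeq2 size factors moved no count by over 1.5 times.

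The fit without mice 48, 52, 53 and 77 was chosen after seeing the data and narrows, by construction, the spread of genes that vary with the first principal component. It gave adjusted counts of 4 and 2 for the FcD and anti-TGF-β combinations against control, 6 and 2 against anti-PD-1 FcS, 6 and 1 against the same mAb alone, 3 and 4 for the anti-TGF-β against the WT and FcD combinations and 1 for the FcD interaction. In the same order these fits called 9.19%, 20.5%, 11.5%, 10.8%, 15.1%, 0.706%, 33.5%, 41.2% and 2.77% of all tested genes. Its unadjusted counts were 0 (anti-TGF-β alone), 3 and 3 (WT and anti-TGF-β combinations against control), 3 (anti-TGF-β combination against anti-PD-1 FcS), 3 and 4 (WT and anti-TGF-β combinations against the same mAb alone), 2 (FcD against WT combination), 6 (anti-TGF-β against FcD combination) and 2, 6 and 1 (WT, FcD and anti-TGF-β interactions), beside 1.42%, 9.76%, 36.1%, 30.8%, 21.2%, 25.8%, 8.32%, 50.1%, 16.9%, 19.4% and 9.74% of all genes in the same order. Over all genes, adjusted calls between the anti-TGF-β and WT combinations were 2684, 848 with no filter, 0 with only these groups and 0 to 5309 with a mouse left out, and against the FcD combination 954, 0, 0 and 0 to 4612.

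Libraries 61 to 80 alone gave 20 adjusted member calls (5 and 1 for the WT and FcD combinations against control, 6 for the WT combination against WT alone, 5 and 3 for the anti-TGF-β against the WT and FcD combinations), beside 14.2%, 1.75%, 21%, 37.3% and 25.6% of all genes, and libraries 41 to 60 gave 0. From libraries 41 to 60 alone these log2 fold changes turned sign. For the WT combination they were -0.21 (Rel) and -0.0050 (Birc3) against control, -0.13 (Birc3) against anti-PD-1 FcS, and -0.076 (Rel), 0.15 (Relb) and -0.17 (Birc3) against WT alone. For the anti-TGF-β combination they were -0.021 (Relb) against anti-TGF-β alone, 0.033 (Tnfaip3), -0.047 (Nfkb2), 0.12 (Rel), -0.19 (Relb) and 0.30 (Birc3) against the WT combination, and -0.037 (Nfkb2) against the FcD combination. Nfkbia was 0.0055 between FcD and WT alone, and the interactions were 0.11 (Relb, WT), -0.29 (Birc3, WT) and 0.015 (Nfkb1, anti-TGF-β). From libraries 61 to 80 alone Nfkbia was -0.0080 (FcD combination against anti-PD-1 FcS) and -0.13 (FcD interaction). Leaving out mouse 73 gave 0.036 for Nfkbia between FcD and WT alone, and leaving out mouse 77 gave 0.058 for Birc3 between the anti-TGF-β and WT combinations, where the values with one mouse left out ranged from -0.50 to 0.058. The cause of these changes was not tested. The other sign changes were of fold changes that lay within 1 SE of 0 over all 40 mice.

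The correlations of Tnf kept their direction in libraries 41 to 60, in 61 to 80 and without mice 48, 52, 53 and 77, where 7, 5 and 6 of 9 passed. With a prior count of 0.5 or DESeq2 size factors 7 passed. The share of all tested genes that would pass with Tnf was not computed, so these counts have no background beside them. Tnf had as few as 36 reads in a tumor and the widest intervals of the members.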
